A study of Mus musculus with 6 samples.

Results

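Motile cilia mRNAs were taken as the mRNAs of 36 genes that build or control the beating axoneme, out of 18437 mRNAs listed in at least 1 of 6 mouse Ribo-seq libraries. Members were found by matching the Ensembl gene identifier of each row to the mouse symbol, and all 36 had a row. Ribo-seq sequences the mRNA fragments held by translating ribosomes. All 6 libraries came from untreated wild-type (WT) C57BL/6J mice at 4 weeks of age, with 1 library each for lung, heart, brain, kidney, colon and small intestine, and the number of animals behind each library was not given in the sources used here. Levels are in RPKM, the reads on the coding sequence (CDS) divided by its length and by all reads on CDSs of that library, so that levels of different genes can be set side by side. Since each tissue had 1 library, spread between replicates could not be measured and differences between libraries were not tested. Intervals are 95% intervals of counting error alone, since reads carried no molecular identifiers.

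Motile cilia are the whip-like organelles with which airway cells move mucus and ependymal cells of the brain move cerebrospinal fluid. Their core, the axoneme, is a ring of microtubule doublets around a central pair, and rows of outer and inner dynein arms slide the doublets past each other. Radial spokes connect the doublets with the central pair, nexin links tie neighbouring doublets together, and ruler proteins set the spacing of the repeats along the doublet. The transcription factors Foxj1 and RFX switch on the genes of these parts in multiciliated cells, and loss of many of them causes primary ciliary dyskinesia, a disease of airway clearance.

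Between 4504853 and 10635031 reads on CDSs were recovered per library. Markers of airway secretory cells (Scgb1a1, Scgb3a2, Cyp2f2, Bpifa1) were all highest in the library labelled lung, with a summed level of 24675 RPKM there and 6.14 to 187 RPKM elsewhere, and cardiomyocyte markers were highest in the library labelled heart. The other 4 labels went against their markers. The neuron markers Snap25, Syt1 and Stmn2 summed to 3338 RPKM in the small intestine library and to 21.8 RPKM in the brain library, as labelled, and in the lung library Snap25 had 0 reads, Syt1 5.43 RPKM (53 reads) and Stmn2 112 RPKM (464 reads). Kidney tubule markers were highest in the library labelled colon, goblet cell markers in that labelled kidney and enterocyte markers in that labelled brain. Libraries are therefore called lung-labelled, small intestine-labelled and so on throughout, and what a level in the latter 4 says about the tissue in its name was not tested.

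Promoters of the members were read for the sites of these regulators, since the genes are known to share them. RefSeq windows on GRCm38.p6, each 250 bases before to 50 bases after an annotated start, were at hand for 29 of the 36 members (2 of them under older symbols). The RFX core GTTGCC, on either strand, was found in windows of 13 of the 29 members (44.8%) and in those of 2021 of 13732 genes (14.7%). The forkhead motif GTAAACA lay in windows of 2 members, Ak7 and Cfap43 (6.90%), and of 3.35% of all genes. A facing pair of RFX sites, in the order GTTNCC and then GGNAAC with 0 to 3 bases between them, which reads the same on both strands, was in no member window and in those of 0.888% of all genes. This holds for the exact pattern alone, and pairs that miss it by a letter were not counted. Examples of such near matches among the stretches below are in Dynlrb2 (GTTGCCtagcaac), Dnai2 (gttgctaGGCAAC), Cfap44 (gttgctatGGCAAC) and Spag16 (GTTGCCgtagtaac). These examples are not a complete list. The 150 bases before the start held the RFX core in 10 of the 29 members (34.5%) and in 8.11% of all genes. Below, for each structure that has such a member, is the stretch of the member that was most in excess in the lung-labelled library. Each is written 5′ to 3′ on the strand of its gene, with the RFX core or its reverse complement in capitals. The positions on GRCm38.p6 were chr11:114727269-114727418, plus strand for Dnai2, chr5:124724935-124725084, plus strand for Dnah10, chr1:69826820-69826969, plus strand for Spag16, chr5:30281243-30281392, plus strand for Drc1, chr16:44394649-44394798, plus strand for Cfap44, chr11:72361883-72362032, minus strand for Tekt1 and chr8:116504865-116505014, plus strand for Dynlrb2.
Dnai2: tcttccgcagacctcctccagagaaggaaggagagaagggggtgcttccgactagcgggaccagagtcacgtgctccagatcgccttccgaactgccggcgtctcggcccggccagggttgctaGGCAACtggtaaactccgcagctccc
Dnah10: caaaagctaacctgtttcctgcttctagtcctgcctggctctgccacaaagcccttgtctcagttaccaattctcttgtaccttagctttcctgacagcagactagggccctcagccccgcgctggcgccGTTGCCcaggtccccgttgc
Spag16: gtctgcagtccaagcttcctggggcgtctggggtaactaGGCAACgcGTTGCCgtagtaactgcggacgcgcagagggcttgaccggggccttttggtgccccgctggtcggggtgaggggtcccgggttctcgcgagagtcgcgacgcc
Drc1: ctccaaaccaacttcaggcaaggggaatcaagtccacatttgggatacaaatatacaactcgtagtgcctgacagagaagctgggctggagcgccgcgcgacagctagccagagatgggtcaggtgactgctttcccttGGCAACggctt
Cfap44: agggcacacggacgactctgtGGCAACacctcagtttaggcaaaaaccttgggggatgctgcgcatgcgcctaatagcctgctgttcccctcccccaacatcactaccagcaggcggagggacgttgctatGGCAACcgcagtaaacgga
Tekt1: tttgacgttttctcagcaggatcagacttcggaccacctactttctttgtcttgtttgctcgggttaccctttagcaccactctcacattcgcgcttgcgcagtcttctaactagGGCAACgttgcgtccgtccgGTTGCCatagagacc
Dynlrb2: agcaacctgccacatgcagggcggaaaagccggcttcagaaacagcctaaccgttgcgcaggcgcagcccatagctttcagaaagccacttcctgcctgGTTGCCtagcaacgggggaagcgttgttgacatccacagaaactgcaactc
Spag16, Cfap44 and Tekt1 each carried the core at 2 places in these stretches, those of Spag16 in the opposite order to the facing pair searched, and the nearest to a start was that of Drc1, 11 bases before it. A match of letters is a description of the window and not a measured binding site.

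The library labelled lung had the highest level of 34 of the 36 members, where 24.5% of the 15432 mRNAs with at least 10 reads over the 6 libraries were highest in that library. The 2 exceptions were Spag6l and Cfap46, both of the central pair and both highest in the small intestine-labelled library. Of the 34, Tekt2 counted through 1 read, and it was the only member under 10 reads over the 6 libraries. Of the 35 members past that filter, 3 passed only through the lung-labelled library. These were Spag16, Cfap126 and Dynlrb2, and all 3 are among the 22 members past 4-fold and the 14 past 10-fold below. Against the highest of the other 5 libraries, with each of these set to at least the level of 3 reads, 22 members were at least 4-fold higher in the lung-labelled library, beside 4.65% of all mRNAs tested. The median excess was 8.25-fold over the 36 members and 0.316-fold over all mRNAs tested. It ranged from 0 for Spag6l to 72.1 for Dynlrb2, and 14 members were past 10-fold, beside 1.68% of all mRNAs tested. The lists of members and the labels of the libraries were known when these counts were made, so the counts describe these 6 libraries only.

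**Figure D1:**
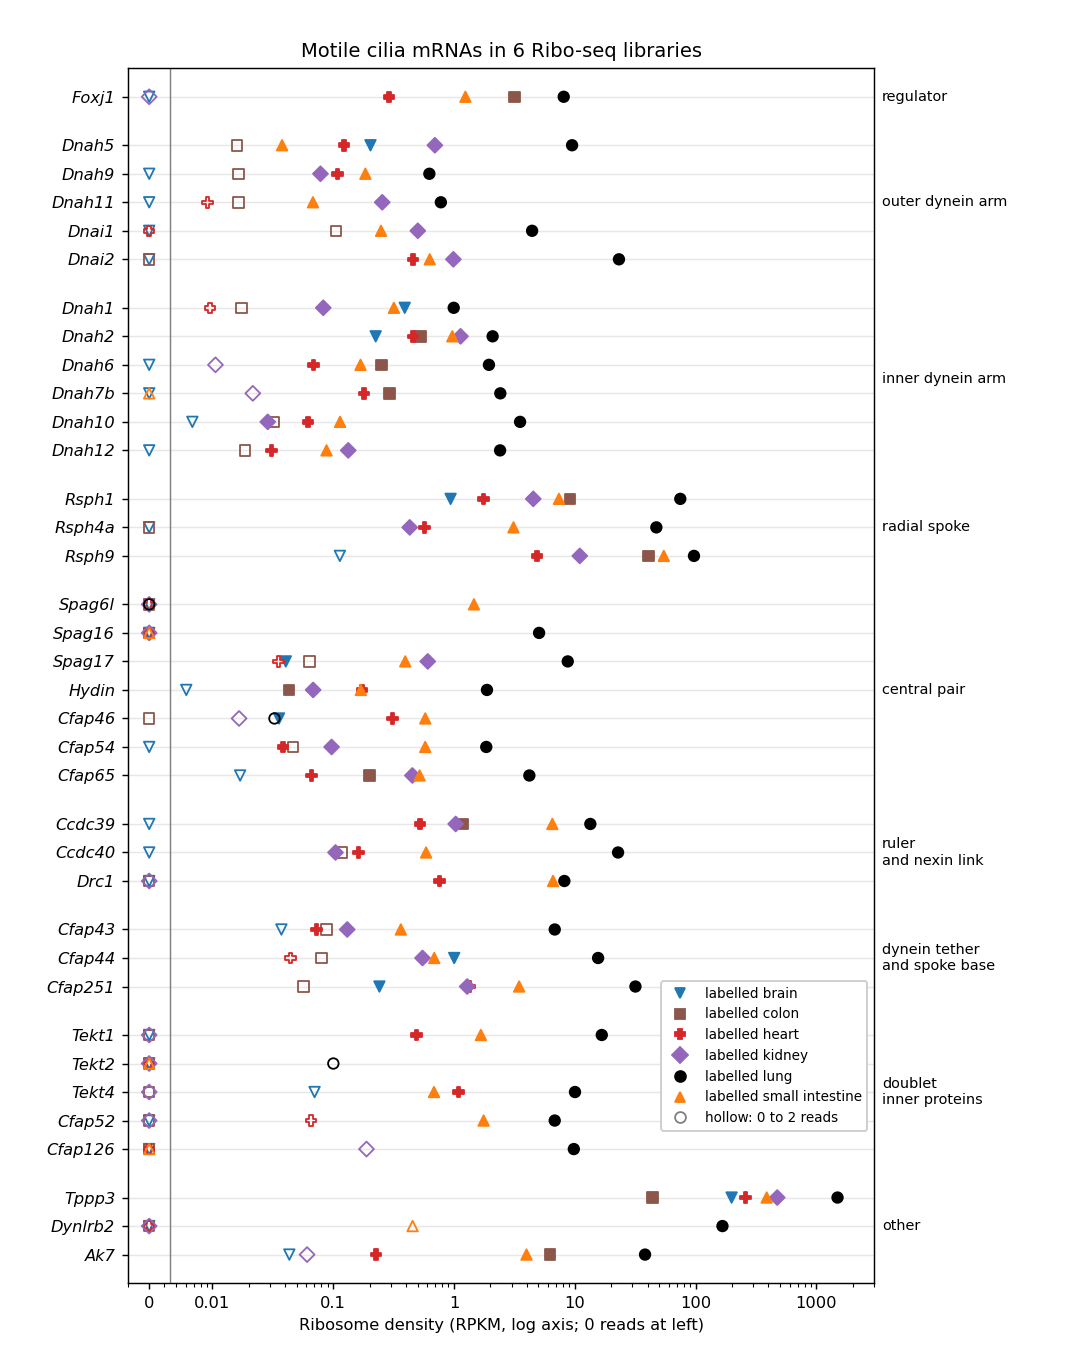
Ribosome density (RPKM, log axis) of the 36 motile cilia mRNAs, 1 row per gene grouped by structure, in the 6 libraries. Hollow points rest on 0 to 2 reads and points left of the line on 0 reads. The lung-labelled library is farthest to the right for all members but Spag6l and Cfap46.

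**Figure D2:**
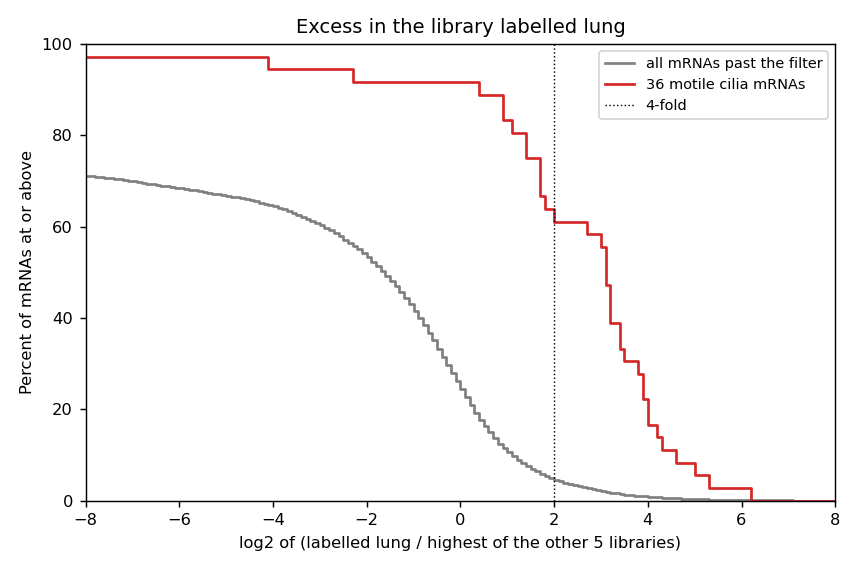
Percent of mRNAs whose level in the lung-labelled library exceeded the highest of the other 5 libraries by the log2 fold on the x axis or more, for the 36 members (red) and for the 15432 mRNAs tested (grey). At 4-fold (dotted line) the curves stood at 22 of 36 members and at 4.65% of all mRNAs.

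Foxj1 (chr11:116221530-116226225, minus strand on GRCm39, as for all genes below), the transcription factor of motile ciliogenesis, had 8.09 RPKM (79 reads) in the lung-labelled library and 3.16 RPKM (18 reads) in the colon-labelled library. It stood at 1.24 RPKM (12 reads) in the small intestine-labelled library and at 0.290 RPKM (3 reads) in the heart-labelled library, and had no reads in the brain- and kidney-labelled libraries. The lung-labelled level was 2.56 times that of the colon-labelled library (interval 1.52 to 4.54) and 6.51 times that of the small intestine-labelled library (3.53 to 13.1).

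All 5 outer dynein arm mRNAs were highest in the lung-labelled library, where they ranged from 0.625 to 23.2 RPKM. Dnai2 (chr11:114614535-114648715, plus strand), an intermediate chain at the base of the arm, had 23.2 RPKM (335 reads) in the lung-labelled library, 0.988 RPKM in the kidney-labelled, 0.630 RPKM in the small intestine-labelled and 0.458 RPKM in the heart-labelled library, and no reads in the other two. Its partner chain Dnai1 had 4.43 RPKM (72 reads) in the lung-labelled library, 0.502 RPKM in the kidney-labelled, 0.249 RPKM in the small intestine-labelled and 0.106 RPKM (1 read) in the colon-labelled library, with no reads in the rest. Both intermediate chains were thus higher in the lung-labelled library than anywhere else by more than counting error, Dnai2 by 23.5-fold and Dnai1 by 8.83-fold over the kidney-labelled library.

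Dnah5, Dnah9 and Dnah11 encode the heavy chains, the motors of the outer arm, of which Dnah11 is known from the proximal and Dnah9 from the distal part of the cilium. Dnah5 (chr15:28203898-28472198, plus strand) had 9.49 RPKM (1017 reads) in the lung-labelled library. Its levels elsewhere were 0.694 RPKM (73 reads) in the kidney-labelled, 0.203 RPKM (30 reads) in the brain-labelled, 0.123 RPKM (14 reads) in the heart-labelled, 0.0377 RPKM (4 reads) in the small intestine-labelled and 0.0160 RPKM (1 read) in the colon-labelled library. Dnah11 had 0.778 RPKM (81 reads) in the lung-labelled, 0.255 RPKM (26 reads) in the kidney-labelled and 0.0680 RPKM (7 reads) in the small intestine-labelled library, 1 read in each of the colon- and heart-labelled libraries and none in the brain-labelled library. Dnah9 (chr11:65722108-66059377, minus strand) had the lowest value of the arm in the lung-labelled library, within counting error of Dnah11.

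Dnah9 had 0.625 RPKM (65 reads) in the lung-labelled, 0.185 RPKM (19 reads) in the small intestine-labelled, 0.109 RPKM (12 reads) in the heart-labelled, 0.0784 RPKM (8 reads) in the kidney-labelled and 0.0165 RPKM (1 read) in the colon-labelled library, and none in the brain-labelled library. The order of the heavy chains differed between the libraries. Dnah5 was 15.2 times Dnah9 in the lung-labelled library (11.8 to 19.8) and 0.204 times Dnah9 in the small intestine-labelled library (0.0505 to 0.615), where it rested on 4 reads. Dnah9 and Dnah11 could not be ordered in the lung-labelled library, with a ratio of 0.803 (0.570 to 1.13).

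The 6 inner dynein arm heavy chains were all highest in the lung-labelled library and spanned a narrow range there, 0.994 to 3.52 RPKM. Dnah10 (chr5:124802149-124911372, plus strand), with Dnah2 a heavy chain of inner arm f, was the highest of them at 3.52 RPKM (375 reads). Elsewhere it had 0.114 RPKM (12 reads) in the small intestine-labelled, 0.0621 RPKM (7 reads) in the heart-labelled, 0.0322 RPKM (2 reads) in the colon-labelled, 0.0287 RPKM (3 reads) in the kidney-labelled and 0.00683 RPKM (1 read) in the brain-labelled library. Dnah2 (chr11:69311635-69439936, minus strand) was spread more evenly, with 2.09 RPKM (216 reads) in the lung-labelled, 1.13 RPKM (115 reads) in the kidney-labelled, 0.967 RPKM (99 reads) in the small intestine-labelled, 0.531 RPKM (32 reads) in the colon-labelled, 0.456 RPKM (50 reads) in the heart-labelled and 0.225 RPKM (32 reads) in the brain-labelled library. These partners of 1 motor stood in opposite order in the libraries, Dnah10 at 1.69 times Dnah2 in the lung-labelled library (1.42 to 2.00) and at 0.118 times Dnah2 in the small intestine-labelled library (0.0589 to 0.215).

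The other inner arm chains belong to arms with a lone heavy chain. Dnah12 (chr14:26414410-26613660, plus strand) had 2.41 RPKM (221 reads) in the lung-labelled library, 0.133 RPKM in the kidney-labelled, 0.0881 RPKM in the small intestine-labelled, 0.0309 RPKM in the heart-labelled and 0.0187 RPKM in the colon-labelled library, with none in the brain-labelled library. Dnah6 had 1.95 RPKM (187 reads) in the lung-labelled library, 0.250 RPKM in the colon-labelled, 0.168 RPKM in the small intestine-labelled, 0.0688 RPKM in the heart-labelled and 0.0106 RPKM (1 read) in the kidney-labelled library, and no reads in the brain-labelled library. Dnah1 (chr14:30982332-31045915, minus strand), the lowest inner arm chain in the lung-labelled library at 0.994 RPKM (98 reads), was unusual in that the brain-labelled library came next with 0.391 RPKM (53 reads), ahead of the small intestine-labelled library with 0.318 RPKM (31 reads). It had 0.0827 RPKM (8 reads) in the kidney-labelled library and 1 read in each of the colon- and heart-labelled libraries.

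Dnah7b had 2.42 RPKM (228 reads) in the lung-labelled, 0.291 RPKM (16 reads) in the colon-labelled, 0.180 RPKM (18 reads) in the heart-labelled and 0.0216 RPKM (2 reads) in the kidney-labelled library, and no reads in the small intestine- and brain-labelled libraries. Its level is uncertain, because the mouse has the near-identical copies Dnah7a and Dnah7c and reads that fit several mRNAs were excluded by the authors. Dnah7c had 1.09 RPKM (102 reads) and Dnah7a 0.493 RPKM (46 reads) in the lung-labelled library, and outside it the 2 copies had 1 read in all.

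Spoke head mRNAs were the highest of any axonemal structure, with a median of 74.6 RPKM in the lung-labelled library. Rsph9 (chr17:46432961-46455178, minus strand) had 96.9 RPKM (620 reads) there, but also 54.5 RPKM (345 reads) in the small intestine-labelled, 40.8 RPKM (152 reads) in the colon-labelled, 10.99 RPKM (69 reads) in the kidney-labelled, 4.87 RPKM (33 reads) in the heart-labelled and 0.114 RPKM (1 read) in the brain-labelled library. Rsph4a (chr10:33781036-33792347, plus strand), another spoke head subunit, had 47.3 RPKM (785 reads) in the lung-labelled, 3.11 RPKM (51 reads) in the small intestine-labelled, 0.569 RPKM (10 reads) in the heart-labelled and 0.430 RPKM (7 reads) in the kidney-labelled library, with no reads in the brain- and colon-labelled libraries. Rsph1 stood between them at 74.6 RPKM (521 reads) in the lung-labelled library, with 9.10 RPKM in the colon-labelled, 7.39 RPKM in the small intestine-labelled, 4.53 RPKM in the kidney-labelled, 1.76 RPKM in the heart-labelled and 0.937 RPKM in the brain-labelled library.

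The 3 subunits share a spoke head but did not keep 1 ratio across libraries. Rsph9 was 2.05 times Rsph4a in the lung-labelled library (1.84 to 2.28) and 17.5 times Rsph4a in the small intestine-labelled library (13.05 to 24.0). Against Rsph1 it stood at 1.30 (1.15 to 1.46) and 7.38 (5.49 to 10.1), so the ratio was higher in the small intestine-labelled library against either partner.

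Members of the central pair differed among themselves, with 5 of 7 highest in the lung-labelled library. Spag17 (chr3:99792670-100050638, plus strand), which forms a projection of the central apparatus, was the highest with 8.74 RPKM (470 reads) in the lung-labelled library, 0.606 RPKM (32 reads) in the kidney-labelled, 0.395 RPKM (21 reads) in the small intestine-labelled, 0.0638 RPKM (2 reads) in the colon-labelled, 0.0405 RPKM (3 reads) in the brain-labelled and 0.0351 RPKM (2 reads) in the heart-labelled library. Spag16 (chr1:69866036-70764291, plus strand), a protein of the central pair bridge, was seen in the lung-labelled library alone, at 5.06 RPKM (75 reads), which is at least 14.6-fold over the level that 3 reads would give in the colon-labelled library. Hydin, whose loss leaves cilia without a central pair projection, had 1.87 RPKM (224 reads) in the lung-labelled library and 0.174, 0.169, 0.0682, 0.0431 and 0.00608 RPKM in the heart-, small intestine-, kidney-, colon- and brain-labelled libraries.

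Cfap65 had 4.20 RPKM (180 reads) in the lung-labelled library, 0.519 RPKM in the small intestine-labelled, 0.452 RPKM in the kidney-labelled, 0.200 RPKM in the colon-labelled, 0.0662 RPKM in the heart-labelled and 0.0170 RPKM in the brain-labelled library. Cfap54 had 1.85 RPKM (136 reads) in the lung-labelled and 0.578 RPKM (42 reads) in the small intestine-labelled library, and 0.0970, 0.0467, 0.0385 and 0 RPKM in the kidney-, colon-, heart- and brain-labelled libraries. Both proteins are parts of the central apparatus, and both were highest in the lung-labelled library and next highest in the small intestine-labelled library.

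Cfap46 (chr7:139180867-139263733, minus strand) and Spag6l (chr16:16568950-16647402, minus strand) went the other way. Cfap46, another part of the central apparatus, had 0.578 RPKM (35 reads) in the small intestine-labelled and 0.308 RPKM (20 reads) in the heart-labelled library, but 0.0356 RPKM (3 reads) in the brain-labelled, 0.0327 RPKM (2 reads) in the lung-labelled and 0.0166 RPKM (1 read) in the kidney-labelled library and none in the colon-labelled library. The lung-labelled level was 0.0565 times that of the small intestine-labelled library (0.00658 to 0.220). Spag6l, an armadillo repeat protein of the central apparatus, had 1.46 RPKM (17 reads) in the small intestine-labelled library and no reads in the other 5. In the lung-labelled library 3 reads would have given 0.255 RPKM, and the ratio to the small intestine-labelled library was at most 0.240.

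Zero reads in the lung-labelled library do not always go with low levels elsewhere. Of 2644 mRNAs with over 10 RPKM in all other 5 libraries, 23 (0.870%) had 0 reads in the lung-labelled library, against 2 of 2852 in the small intestine-labelled library. The brain-labelled library had 20 such mRNAs of 2745. Whether the 0 of Spag6l is of this kind was not tested, and Spag6l has the close copy Spag6, which had 0 reads in all 6 libraries.

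Ccdc39 and Ccdc40 form the ruler that docks inner arms and spokes at their spacing, and Drc1 is a base subunit of the nexin link. Ccdc40 (chr11:119119364-119156082, plus strand) had 22.8 RPKM (667 reads) in the lung-labelled library against 0.587 RPKM (17 reads) in the small intestine-labelled, 0.161 RPKM (5 reads) in the heart-labelled, 0.117 RPKM (2 reads) in the colon-labelled and 0.104 RPKM (3 reads) in the kidney-labelled library, and none in the brain-labelled library. Ccdc39 (chr3:33864905-33898478, minus strand) had 13.4 RPKM (292 reads) in the lung-labelled library, yet 6.51 RPKM (140 reads) in the small intestine-labelled library, followed by 1.18 RPKM (15 reads) in the colon-labelled, 1.03 RPKM (22 reads) in the kidney-labelled, 0.522 RPKM (12 reads) in the heart-labelled and 0 in the brain-labelled library. The ratio of Ccdc40 to Ccdc39, whose products act as 1 complex, was 1.70 in the lung-labelled library (1.48 to 1.95) and 0.0902 in the small intestine-labelled library (0.0511 to 0.150).

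Drc1 (chr5:30486175-30524403, plus strand) came closest to equal levels, with 8.19 RPKM (143 reads) in the lung-labelled and 6.601 RPKM (114 reads) in the small intestine-labelled library, 0.757 RPKM (14 reads) in the heart-labelled library and no reads in the other three. The ratio of the first to the second was 1.24, and its interval of 0.963 to 1.60 includes equal levels. With libraries scaled by the median ratio over shared mRNAs rather than by total reads, Drc1 was highest in the small intestine-labelled library.

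Cfap43 and Cfap44 form the tether that holds inner arm f to the doublet, and Cfap251 sits at the base of a radial spoke. Cfap251 (chr5:123390165-123465548, plus strand) had 31.7 RPKM (956 reads) in the lung-labelled, 3.46 RPKM (103 reads) in the small intestine-labelled, 1.35 RPKM (43 reads) in the heart-labelled, 1.29 RPKM (38 reads) in the kidney-labelled, 0.241 RPKM (10 reads) in the brain-labelled and 0.0570 RPKM (1 read) in the colon-labelled library. Cfap44 (chr16:44215138-44302791, plus strand) had 15.6 RPKM (666 reads) in the lung-labelled library and, next to it, 1.00 RPKM (59 reads) in the brain-labelled library, followed by 0.686, 0.549, 0.0803 and 0.0442 RPKM in the small intestine-, kidney-, colon- and heart-labelled libraries. Cfap43 (chr19:47725296-47907726, minus strand), its partner, had 6.82 RPKM (266 reads) in the lung-labelled library and 0.363, 0.131, 0.0880, 0.0727 and 0.0373 RPKM in the small intestine-, kidney-, colon-, heart- and brain-labelled libraries. Cfap44 was 2.29 times Cfap43 in the lung-labelled library (1.98 to 2.64) and 1.89 times in the small intestine-labelled library (0.967 to 3.87), where 29 and 14 reads leave a wide range. In the brain-labelled library Cfap44 had 59 reads and Cfap43 had 2, and in the heart-labelled library Cfap44 had 2 and Cfap43 had 3.

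Proteins inside the doublet lumen were represented by 5 members. Tekt1 (chr11:72235545-72253268, minus strand), a tektin, had 16.7 RPKM (162 reads) in the lung-labelled, 1.67 RPKM (16 reads) in the small intestine-labelled and 0.487 RPKM (5 reads) in the heart-labelled library and no reads elsewhere. Tekt4 (chr17:25673515-25695576, plus strand), another tektin, had 10.03 RPKM (104 reads) in the lung-labelled, 1.09 RPKM (12 reads) in the heart-labelled, 0.683 RPKM (7 reads) in the small intestine-labelled and 0.0701 RPKM (1 read) in the brain-labelled library and no reads in the rest. Tekt2 (chr4:126215914-126219481, minus strand), in contrast, had 1 read in all, in the lung-labelled library (0.1003 RPKM, interval 0.00254 to 0.559), far under the other tektins.

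Cfap126, which lines the inner wall of the doublet, had 9.81 RPKM (53 reads) in the lung-labelled library and 0.189 RPKM (1 read) in the kidney-labelled library, and no reads elsewhere, so it was at least 17.5-fold over the level that 3 reads would give in the small intestine-labelled library. Cfap52 had 6.82 RPKM (98 reads) in the lung-labelled library, 1.76 RPKM (25 reads) in the small intestine-labelled library and 0.0657 RPKM (1 read) in the heart-labelled library, with none in the rest. Both mRNAs had fewer than 3 reads in each of the brain-, colon-, heart- and kidney-labelled libraries.

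The remaining members include the most abundant of the 36. Tppp3 (chr8:106193662-106198158, minus strand), a tubulin polymerization-promoting protein, had 1494 RPKM (6096 reads) in the lung-labelled library, where it ranked 60 of 11594 mRNAs with reads. It was also high elsewhere, with 473 RPKM in the kidney-labelled, 387 RPKM in the small intestine-labelled, 260 RPKM in the heart-labelled, 198 RPKM in the brain-labelled and 43.7 RPKM in the colon-labelled library. Its share of the summed RPKM of the 36 members ran from 41.2% in the colon-labelled to 98.3% in the brain-labelled library, so sums were also taken without it. Its paralog Tppp had another order, with 177 RPKM in the small intestine-labelled, 83.0 RPKM in the brain-labelled and 20.0 RPKM in the lung-labelled library.

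Dynlrb2 (chr8:117231593-117242662, plus strand), a roadblock-type light chain of dynein, had 167 RPKM (371 reads) in the lung-labelled library, 0.454 RPKM (1 read) in the small intestine-labelled library and no reads in the other four. It was at least 72.1-fold over the level of 3 reads in the colon-labelled library, and its ratio to the small intestine-labelled library was 367 (65.4 to 14530). Its paralog Dynlrb1, a subunit of cytoplasmic dynein, had 160 RPKM in the lung-labelled library and between 60.5 and 190 RPKM in all others. The ratio of Dynlrb2 to Dynlrb1 was thus 1.04 in the lung-labelled library (0.898 to 1.20) and 0.00239 in the small intestine-labelled library (6.03e-05 to 0.0134).

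Ak7 (chr12:105672214-105748706, plus strand), an adenylate kinase of the axoneme, had 38.1 RPKM (639 reads) in the lung-labelled, 6.24 RPKM (61 reads) in the colon-labelled, 3.98 RPKM (66 reads) in the small intestine-labelled, 0.225 RPKM (4 reads) in the heart-labelled, 0.0608 RPKM (1 read) in the kidney-labelled and 0.0434 RPKM (1 read) in the brain-labelled library. Like Foxj1, Rsph1, Dnah6 and Dnah7b, it had the colon-labelled library in the next place. For each of them the interval of the colon-labelled level overlapped that of the library after it. With libraries scaled by the median ratio over shared mRNAs, the small intestine-labelled library took this place for Rsph1.

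Summed over 35 members without Tppp3, ribosomes on motile cilia mRNAs took 1346 of 1000000 reads on CDSs in the lung-labelled library (1320 to 1372), 178 in the small intestine-labelled (168 to 187), 82.6 in the colon-labelled (74.4 to 91.4), 70.8 in the kidney-labelled (64.9 to 77.1), 40.3 in the heart-labelled (36.1 to 44.9) and 19.5 in the brain-labelled library (16.9 to 22.3). None of these intervals overlapped except for those of the colon- and kidney-labelled libraries. Rsph9 alone gave 152 of the 372 reads of the colon-labelled sum and 69 of the 537 of the kidney-labelled sum. In the small intestine-labelled sum it gave 345 of 1357 reads. The order of the sums without Rsph9 was not computed. In bulk tissue, fewer ciliated cells and fewer ribosomes on these mRNAs per cell cannot be told apart. At least 3 reads were seen for 33 members in the lung-labelled, 31 in the small intestine-labelled and 25 in the heart-labelled library. In the kidney-, colon- and brain-labelled libraries it was 22, 11 and 9 members. All mRNAs with any read numbered 11594, 15028, 14670, 14109, 12325 and 11520 in the same order of libraries. The totals of members move with depth, which was lowest in the colon-labelled library. The share of all mRNAs with at least 3 reads was not set beside them.

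Among the 5 libraries other than the lung-labelled, the small intestine-labelled library, which held the neuron markers, was highest for 16 members, where 28.1% of all mRNAs tested were highest in it. The kidney-labelled library came next with 9 members, then the colon-labelled with 5 and the brain- and heart-labelled with 2 each, while Spag16 and Tekt2 had no reads in any of the 5. No share of all mRNAs was set beside the counts of these other 4 libraries, which are a description only. The lung- and small intestine-labelled libraries both exceeded each of the other 4 by at least 4-fold for Rsph4a, Cfap54, Ccdc39, Drc1 and Cfap52, 5 members in all, beside 0.927% of all mRNAs tested. These 5 come from the spoke, the central pair, the ruler, the nexin link and the doublet lumen, and no dynein arm mRNA was among them.

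Set against each other, the lung-labelled library was at least 4-fold over the small intestine-labelled library for 24 members (20.5% of all mRNAs tested) and at least 4-fold under it for Spag6l and Cfap46 (25.6% of all mRNAs tested). Over the 31 members with reads in both, the median ratio was 10.1, with quartiles of 3.62 and 20.5, beside a median of 1.51 over 10884 mRNAs. Members with 0 reads in the small intestine-labelled library, among them Dnah7b and Spag16, are left out of this median. The 9 members with at least 50 reads in both had a median ratio of 3.86, with a range of 1.24 to 15.2, so the size of the median depends on the members with few reads.

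By structure, reads summed over members were 36.1 times higher in the lung-labelled than in the small intestine-labelled library for the outer arm (26.7 to 50.1), 12.8 times for the tether and spoke base (10.8 to 15.2), 8.61 times for the doublet lumen (6.38 to 11.9) and 7.89 times for the inner arm (6.71 to 9.33). The central pair followed with 6.85 times (5.79 to 8.15), the radial spoke with 4.26 times (3.84 to 4.73) and the ruler and nexin link with 4.02 times (3.52 to 4.61). The sum of the outer arm rested on Dnah5, with 1017 against 4 reads, and without Dnah5 it was 14.0 times (10.1 to 19.9), which overlaps the tether and spoke base. Other sums leaned on few members too. In the small intestine-labelled library, Dnah2 gave 99 of the 166 inner arm reads. Cfap46 and Spag6l gave 35 and 17 of the 157 central pair reads there. The order of the structures by sums can thus move with single members. By the median ratio of members with reads in both, the tether and spoke base stood at 18.8, the outer arm at 17.8 and the ruler and nexin link at 2.06. The interval of the summed central pair stood above that of the radial spoke, whose reads in the small intestine-labelled library were mostly of Rsph9. Across the 31 members, log2 RPKM in both libraries correlated with Pearson's r of 0.667 and Spearman's rho of 0.662, given as a description across genes that share both libraries and their depth.

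**Figure D3:**
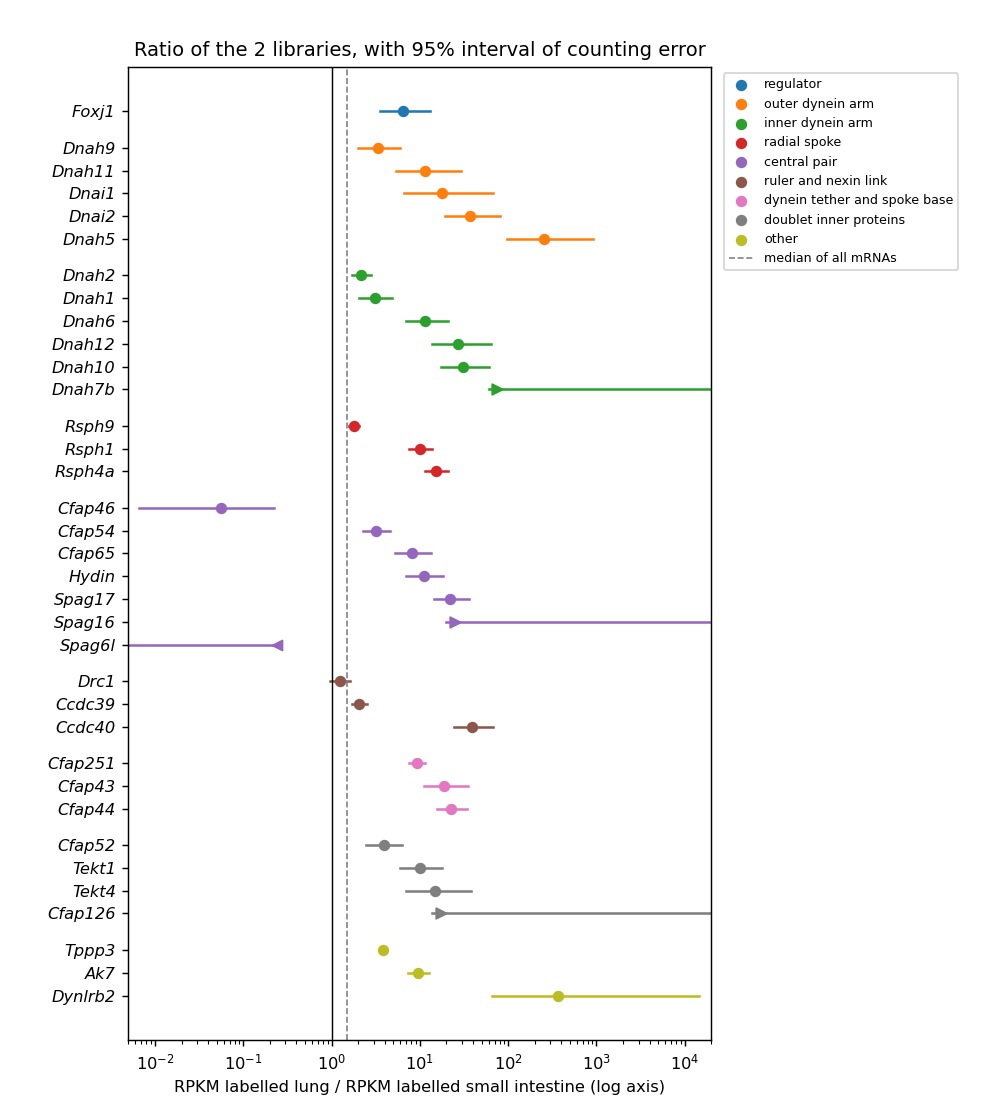
Ratio of RPKM in the lung-labelled to the small intestine-labelled library (log axis) for members with at least 10 reads in both together, coloured by structure, with 95% intervals of counting error. Arrowheads mark a side with 0 reads, to the right at the bound set by 3 reads and to the left at the upper end of the interval. Outer arm genes reach from 3.38 (Dnah9) to 251 (Dnah5), and Cfap46 and Spag6l lie left of 1.

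Levels of the members in the other libraries were set beside those of 8 lung markers (4 of airway secretory and 4 of alveolar type 2 cells). How reads of these markers came to be under another label was not tested. In the small intestine-labelled library these markers reached 0 to 0.0543% of their lung-labelled level, while the 33 members with at least 3 reads in the lung-labelled library had a median of 8.74%, and 29 of them were above the highest marker with at least 3 reads. In the kidney-labelled library the markers reached up to 1.16% and the members had a median of 3.64%, with 19 above. Corresponding values were up to 2.17% and 1.76% with 14 above in the heart-labelled, up to 0.758% and 1.29% with 11 above in the colon-labelled, and up to 0.356% and 0% with 8 above in the brain-labelled library. In the small intestine-, colon- and brain-labelled libraries, each of the 33 with at least 3 reads was above the markers. The counts of 29, 11 and 8 are thus counts of members with reads. No share of all mRNAs was set beside the 5 counts. Dnah2, Rsph1 and Tppp3 were above the markers in all 5.

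Members above the markers differed between libraries. The 8 of the brain-labelled library were Dnah5, Dnah1, Dnah2, Rsph1, Spag17, Cfap44, Cfap251 and Tppp3, while Foxj1 had no reads there. The 11 of the colon-labelled library, which held the kidney tubule markers, included Foxj1, Rsph1, Rsph9, Ccdc39 and Ak7 but none of the outer arm. The kidney-labelled library, which held the goblet cell markers, had all 5 outer arm mRNAs above the markers and no Foxj1 read.

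**Figure D4:**
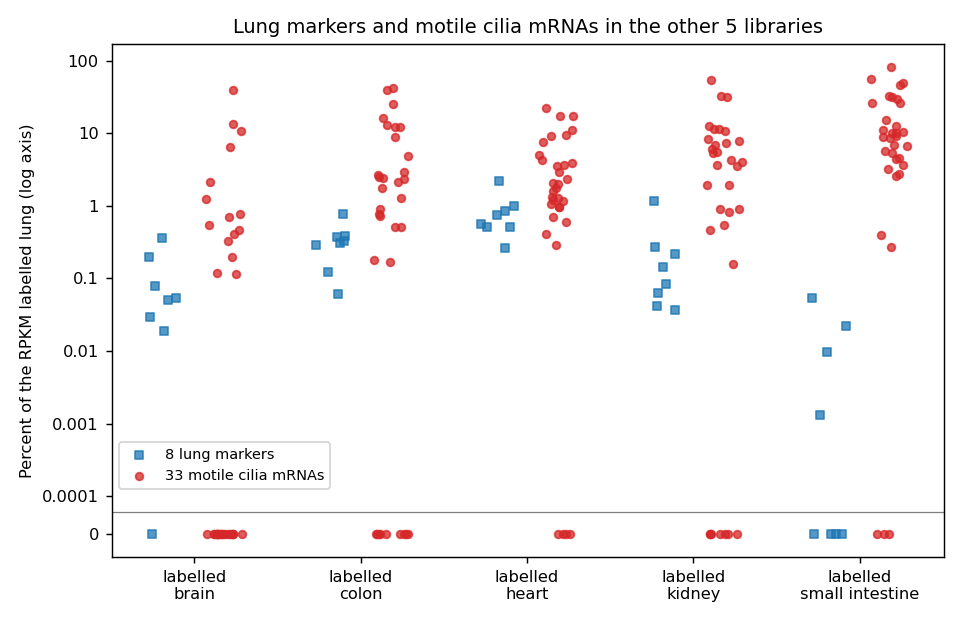
Level in each of the other 5 libraries as a percent of the level in the lung-labelled library (log axis, 0 below the line) for 8 lung markers (blue squares) and the 33 motile cilia mRNAs with at least 3 reads in the lung-labelled library (red circles). In the small intestine-labelled library the markers lie at or under 0.0543% and the members have a median of 8.74%.

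Genes taken as markers of ependymal cells, the ciliated lining of the brain ventricles, did not follow the neuron markers. Whether they mark ependymal cells alone among ciliated cells was not tested. Ccdc153 had 156 RPKM in the lung-labelled and 2.50 RPKM in the small intestine-labelled library, Tmem212 had 37.4 and 0 RPKM, and all 4 markers of this list were highest in the lung-labelled library, with a summed level of 452 RPKM there and 28.6 to 212 RPKM elsewhere. Of the choroid plexus markers, Ttr was highest in the small intestine-labelled library at 1819 RPKM, Folr1 and Kl were highest in the colon-labelled library, and Clic6 was highest in the lung-labelled library at 25.9 RPKM. The part of these cell types in the levels above was not tested.

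Longer members had lower densities in the lung-labelled library. The 9 dynein heavy chains, with CDSs of 11880 to 13863 nt, had a median of 2.09 RPKM (0.625 to 9.49), and Dnah5 was the highest of these at 9.49 RPKM. Over the 35 members with reads, log2 RPKM and log2 CDS length had a Pearson's r of -0.618 and a Spearman's rho of -0.659, and over 11414 mRNAs tested the values were -0.259 and -0.274. These are descriptions across genes of 1 library. Tekt2 and Cfap46 lay far under members of like length.

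**Figure D5:**
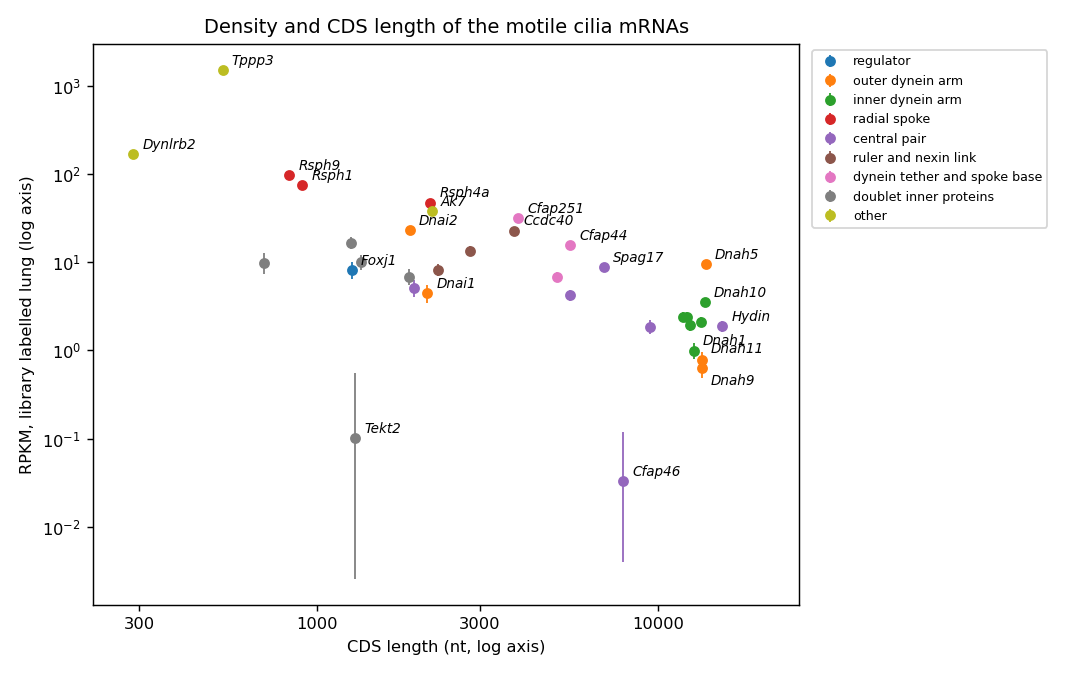
RPKM in the lung-labelled library against CDS length in nt (both axes log) for the 35 members with reads, coloured by structure, with 95% Poisson intervals. Tppp3 (1494 RPKM) and Dynlrb2 (167 RPKM) are the highest, the dynein heavy chains group at the right, and Tekt2 and Cfap46 lie lowest.

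Related genes were counted from lists drawn up with earlier results of these data known, and the shares of all mRNAs to set them against are the 24.5% highest in the lung-labelled library and the 4.65% past 4-fold. Of the outer arm docking complex, 3 of 4 genes with a row were highest in the lung-labelled library, Odad3 with 13.3 RPKM there and 0.661 RPKM in the small intestine-labelled library, whereas Odad1 had 1 read in the lung-labelled library. Of 11 dynein assembly factors, 7 were highest in the lung-labelled library and 3 were past 4-fold, with a median excess of 1.67-fold. Cfap298 had 167 RPKM and Cfap300 31.8 RPKM there, and Zmynd10 and Dnaaf4 had 0.0980 and 0.308 RPKM. Of 41 other axonemal genes with a row, 28 were highest in the lung-labelled library and 21 were past 4-fold, with a median excess of 4.55-fold, led by Nme5 at 269 RPKM and Cfap144 at 243 RPKM.

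None of the 27 genes of intraflagellar transport, the cargo system of motile and primary cilia alike, and none of 9 cytoplasmic dynein genes was past 4-fold in the lung-labelled library, and 7 of 27 and 3 of 9 were highest there. The median excess was 0.546-fold and 0.843-fold, beside 0.316-fold over all mRNAs tested. Dync1h1, the heavy chain of cytoplasmic dynein, ranged from 27.7 to 86.2 RPKM and Dync2h1, that of the transport dynein, from 0.841 to 5.34 RPKM. Of 8 upstream regulators of multiciliation, 2 (Ccno and Deup1) were highest in the lung-labelled library and 1 was past 4-fold. Ccno had 14.2 RPKM there and at most 0.463 RPKM elsewhere, but Mcidas, Gmnc and Trp73 had 0 reads in the lung-labelled library. Rfx3 had 2.65 RPKM there and 2.74 RPKM in the small intestine-labelled library. Rfx2 had 0.481 RPKM there and 2.94 RPKM in the kidney-labelled library, and Myb had 2.91 RPKM there and 15.5 RPKM in the brain-labelled library. Of 7 sperm flagellum genes with a row, 1 (Odf2) was highest in the lung-labelled library.

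The study looked at codon usage, and the share of codons that end in G or C (GC3, with Met, Trp and stop codons left out) was therefore computed for the members. Pooled over the 36 CDSs it was 58.4%, beside 56.6% over 18154 CDSs, and the median of single CDSs was 60.3% beside 58.9%. It ranged from 38.9% for Dnah12 to 75.4% for Tekt4, and 30 members (83.3%) used more codons ending in G or C, beside 73.6% of all CDSs. By structure it was lowest for the radial spoke at 51.4% and, among structures of several members, highest for the doublet lumen at 65.9%. The radial spoke value leaned on Rsph4a at 39.7%, while Rsph1 had 60.2% and Rsph9 72.7%. Members had long CDSs, with a median of 3298.5 nt beside 1320 nt over all matched CDSs.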

How the data were processed

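Ribo-seq libraries of 6 tissues, 1 per tissue, were analysed. RPKM values on CDSs were deposited by the authors. According to the methods, which are written for macrophage libraries and were assumed to apply, adapters were removed with Cutadapt and trimmed reads of at least 15 nt were aligned with STAR to 1 mRNA per gene of Ensembl release 107 (GRCm39). Reads that mapped to several places, or with over 2 mismatches, were left out, which lowers the levels of genes with near-identical copies.

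In every library the product of RPKM and CDS length came in whole steps of 1 read (tolerance 1e-06), which recovered the reads. Symbols and coordinates came from GENCODE release M39 (GRCm39), and 18424 of 18437 mRNAs had a symbol. Exact Poisson and exact binomial intervals (95%) cover counting error only. In the folds behind counts of excess, the denominator was set to at least the level of 3 reads and the numerator was left as it was. No p-value was computed, since each group is 1 library. Recovery and calls were tested on simulated data.

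The members and lists were chosen with earlier results of these data known. Every member is named, in full for the highest, lowest and most divergent of each structure, and related lists by their highest and lowest genes. The comparison with lung markers, the ratios within a library and the promoter stretches shown were chosen after the values were seen. Alternatives changed the scaling, depth, filter, fold, pseudocount and members. Analyses used pandas 2.3.3, scipy 1.17.1 and numpy 2.4.6 in Python 3.11.15, and plots matplotlib 3.10.9.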

Additional observations from a re-analysis of the deposited data

How the results depend on the processing

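Of 55 alternative values, 34 stayed within 1.5 times of a count or within the counting interval of a value, and 21 moved further. The number of members highest in the lung-labelled library was 33 or 34 under all alternatives run, where with scaling by the median ratio over shared mRNAs Drc1 left it. Under that scaling 16.3% of all mRNAs tested were highest there, in place of 24.5%. That scaling lowered the values of the lung-labelled library by 0.48 on the log2 scale. At least 4-fold excess held for 22 members under that scaling (3.12% of all mRNAs tested) and for 24 with libraries thinned to the lowest total (4.78%). The count was 30 at 2-fold (10.7%), 14 at 10-fold (1.68%) and 16 with a pseudocount of 1 RPKM, where no share of all mRNAs was set beside it. In comparisons added after seeing the data, at least 4-fold excess held for 33 members against the heart-labelled library alone (19.6% of all mRNAs tested). It held for 27 without the small intestine-labelled library (6.12%). Counts for the small intestine-labelled library cannot be had without it. The 5 members in excess in both libraries became 9 at 2-fold, 0 at 10-fold and 1 with a pseudocount of 1 RPKM, and no share of all mRNAs was set beside these counts. The median ratio of 10.1 between both libraries was 6.36 with the other scaling, 3.95 with a pseudocount of 1 RPKM and 3.86 over members with at least 50 reads in both.

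Summed RPKM of the 36 members, in alphabetical order of the library labels, of 202, 106, 274, 498, 2141 and 487 became 3.37, 62.4, 14.4, 24.5, 480.6 and 99.1 without Tppp3 and Dynlrb2, and 188, 94.5, 305, 555, 1533 and 554 with the other scaling. The kidney-labelled library thus moved from the next place after the lung-labelled to one behind the small intestine- and colon-labelled libraries without Tppp3 and Dynlrb2. GC3 was 60.2% as the mean of members and 64.4% weighted by lung-labelled RPKM. With the forkhead core TAAACA, 69.0% in place of 51.7% of the 29 members with a window had an RFX or forkhead motif, beside 24.6% in place of 17.8% of all genes. No paired analysis was possible because each tissue has 1 library. The order of members under 3 reads cannot be read, which were 27 of 36 in the brain-labelled library, the deepest, and 25 in the colon-labelled library, the shallowest.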
